A study of Mus musculus with 2 samples.

Results

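Shared peaks at gene 3-prime ends are stretches of open chromatin, found in both ovaries, that lie where protein-coding genes stop. Of 81895 peaks of replicate 2 that overlapped a peak of replicate 1 by at least 1 bp, 1365 had their centre within 500 bp of the 3-prime end of a protein-coding gene in the GENCODE M21 models of GRCm38. Requiring over 2 kb to every annotated transcription start site left 661, and leaving out peaks that touched coding sequence left 550, which is 0.672% of the shared peaks. They belonged to 517 of 21938 protein-coding genes, of which 32 had more than 1. The peaks came from DNase-seq of ovary tissue of 2 female mice aged 36 days, both of the strain B6CASTF1/J, a first-generation cross of C57BL/6J and CAST. They form 1 group, with no treatment and no second genotype. The labels number the females separately and give each a biosample entry of its own, but tie both to 1 donor entry. Each library was taken as 1 animal, so n = 2 throughout, and if both came from 1 animal the spread would be technical. Replicate 2 has the longer list (114462 peaks, against 109169) and served as the reference. A value averages over the whole tissue, in which fewer cells with an open site and less open DNA per cell cannot be told apart.

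DNase I cuts DNA that is not wound on nucleosomes, so open chromatin appears as a peak of cuts, and a protein sitting on the DNA leaves a short uncut footprint inside the peak. Most open sites lie at promoters, where transcription starts, and at enhancers. At the 3-prime end of a gene the transcript is cut and polyadenylated, RNA polymerase II runs on for some distance and then leaves the template. Open sites near such ends can be enhancers, the start sites of transcripts that the gene models lack, or sites of CTCF, a zinc-finger protein that with cohesin anchors chromatin loops and separates domains. Which of these a given peak is was not tested here.

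Sequences of 6 of the strongest sites that lie past a gene end and touch no exon of GENCODE or RefSeq are shown first, because they are stretches of DNA that high values stand for. Each is the plus strand of GRCm38 (RefSeq GRCm38.p6, the C57BL/6J reference, not the CAST allele), and capitals mark bases inside a footprint in both libraries.
Ctdsp1, chr1:74397361-74397600: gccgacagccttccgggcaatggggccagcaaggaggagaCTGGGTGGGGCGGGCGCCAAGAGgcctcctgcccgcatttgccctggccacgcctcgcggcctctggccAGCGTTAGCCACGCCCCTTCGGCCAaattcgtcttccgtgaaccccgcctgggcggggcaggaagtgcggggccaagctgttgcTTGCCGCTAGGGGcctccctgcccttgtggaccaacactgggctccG
Acvrl1, chr15:101145501-101145700: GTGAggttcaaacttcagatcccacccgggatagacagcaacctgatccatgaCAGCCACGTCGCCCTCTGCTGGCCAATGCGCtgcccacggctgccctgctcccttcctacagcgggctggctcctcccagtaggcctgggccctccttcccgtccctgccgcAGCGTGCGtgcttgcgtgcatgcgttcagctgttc
Bcan, chr3:87987021-87987200: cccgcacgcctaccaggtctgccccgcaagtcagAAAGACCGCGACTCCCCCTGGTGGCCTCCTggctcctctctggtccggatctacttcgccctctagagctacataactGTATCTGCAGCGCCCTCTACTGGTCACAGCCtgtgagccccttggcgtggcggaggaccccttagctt
Ripor1, chr8:105622481-105622680: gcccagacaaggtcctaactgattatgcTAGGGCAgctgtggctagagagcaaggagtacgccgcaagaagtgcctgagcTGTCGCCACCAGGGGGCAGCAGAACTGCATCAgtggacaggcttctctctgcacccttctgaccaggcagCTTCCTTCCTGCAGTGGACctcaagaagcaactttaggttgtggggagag
Shf, chr2:122348521-122348800: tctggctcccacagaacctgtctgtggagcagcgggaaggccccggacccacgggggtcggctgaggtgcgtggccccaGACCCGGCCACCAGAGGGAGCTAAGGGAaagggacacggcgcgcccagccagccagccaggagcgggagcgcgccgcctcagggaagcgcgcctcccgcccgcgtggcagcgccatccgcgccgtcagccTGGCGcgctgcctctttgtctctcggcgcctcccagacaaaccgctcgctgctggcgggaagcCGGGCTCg
Vamp2, chr11:69092441-69092640: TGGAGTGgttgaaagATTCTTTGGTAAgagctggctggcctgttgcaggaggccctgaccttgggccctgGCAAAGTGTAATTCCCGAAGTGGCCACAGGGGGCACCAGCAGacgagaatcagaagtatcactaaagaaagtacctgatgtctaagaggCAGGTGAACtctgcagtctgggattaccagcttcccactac
The Ctdsp1 site had 62 of its 240 bases in footprints of both libraries and held 18 CpG dinucleotides. The Bcan site had 61 of 180 bases in such footprints, in stretches of 30 and 31 bases. The Shf site had the most CpG of the 6, with 31 in 280 bases, and the Vamp2 site the fewest, with 2 in 200.

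The peak of highest value lay 196 bp past the end of Ctdsp1, which encodes a phosphatase acting on the tail of RNA polymerase II. Its signal value, a number that the authors deposited per peak and whose scaling they did not state, was 23.0 in replicate 1 and 9.66 in replicate 2. That is a mean of 16.3 ± 9.43 (SD, n = 2), far above the member median of 1.12 in replicate 1 and 0.936 in replicate 2. The nearest RefSeq start site to it was that of Mir26b, 3171 bp away. Next came a site 265 bp past the end of Acvrl1, the type I receptor for BMP9 and BMP10 in endothelium, with 11.9 and 6.61 in replicates 1 and 2. Acvrl1 had no shared peak within 500 bp of any of its annotated start sites. Replicate 1 was the higher library in all 15 of the peaks of highest mean value.

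Ror2, a receptor tyrosine kinase for WNT5A, had a site in its 3-prime untranslated region, 409 bp before the end, with 7.91 in replicate 1 and 5.04 in replicate 2. Dand5, a secreted antagonist of Nodal, had one 336 bp before its end with 9.24 and 5.67, and no shared peak at its promoter. Wwc1, the Hippo pathway protein KIBRA, had one 131 bp before its end with 8.47 and 4.66. For comparison, the upper quartile of all members was 2.12 in replicate 1 and 1.54 in replicate 2. Sertad1, a cell cycle and transcription regulator, had a site 385 bp past its end with 11.2 and 4.82.

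Bcan encodes brevican, a proteoglycan best known from brain, and had a site 420 bp past its end with 9.001 and 4.64. Thbs4, a matrix thrombospondin, had one 331 bp before its end with 6.27 and 4.14. Rtn2, which encodes a reticulon of the endoplasmic reticulum, had one in the untranslated region with 10.5 and 6.90. Vamp2, a vesicle SNARE protein, had one 157 bp past its end with 5.91 and 4.18, and the nearest RefSeq start was one of the clock gene Per1, 2567 bp off. Shf, an SH2 adaptor, had 2 overlapping peaks past its end, with means of 6.62 ± 2.83 and 5.18 ± 2.19 (SD, n = 2). The site past Ripor1, with 7.31 and 4.03, lay in an intron of Agrp, the gene of a hypothalamic appetite peptide. The other 2 of the 15 were at Dtnb, a dystrobrevin, with 6.77 and 3.40, and at 3300002I08Rik, with 6.90 and 4.81. The last of these lay 39 bp from a RefSeq start site of Gm10130 that the GENCODE models lack, and 10.8% of its 36-mers were found elsewhere in the genome.

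**Figure D1:**
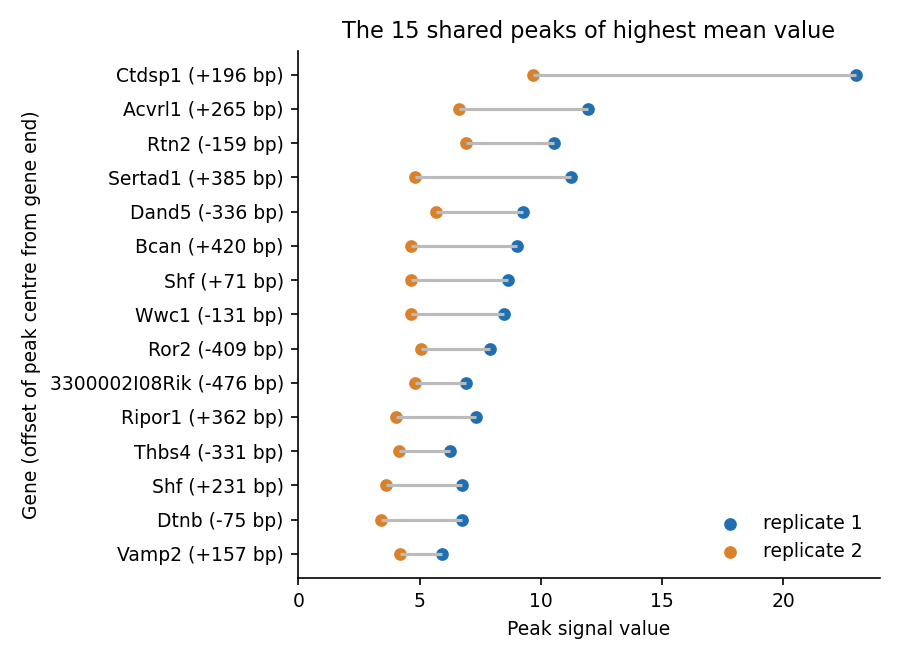
Signal value of the 15 shared peaks at gene ends with the highest mean, in replicate 1 (blue) and replicate 2 (orange), by gene and offset of the peak centre from the gene end (plus, past the end). Replicate 1 is higher in all 15, and the Ctdsp1 site reaches 23.0 against 11.9 for the next.

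The weakest members were faint in both animals. Cyp4f15, a cytochrome P450 gene, had the lowest mean, with 0.221 in replicate 1 and 0.249 in replicate 2. Tcl1b2, of the Tcl1 cluster, had 0.247 and 0.229, and 30.6% of its 36-mers were found elsewhere. The others were at Gm17542 (0.287 and 0.209), Sstr1, a somatostatin receptor (0.274 and 0.308), and Fam114a2 (0.345 and 0.242). Sstr1 had 3 members, the most of any gene, and all 3 were weak, with means between 0.291 and 0.476. Of these 5 lowest peaks, the one at Gm17542 had a footprint in each library and the other 4 had none in either.

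Members had higher values than distal open sites in introns and outside genes, at about the same width. The median was 1.12 in replicate 1 and 0.936 in replicate 2, against 0.827 and 0.707 in 21549 shared peaks in introns, and 0.814 and 0.713 in 21292 shared peaks outside genes. Both comparison classes lie over 2 kb from every start site, outside coding sequence and over 500 bp from every coding gene end. Shared peaks within 500 bp of a start site stood higher, at 3.09 and 1.90, and all shared peaks together had 1.09 and 0.877, close to members. Distal shared peaks in exons away from gene ends were not compared. Median widths were 180 bp in replicate 1 and 200 bp in replicate 2 for members, introns and sites outside genes alike. The order of gene ends above introns and above sites outside genes was the same in both libraries, and the mean of the medians was 1.03 ± 0.128, 0.767 ± 0.0851 and 0.764 ± 0.0713 (SD, n = 2). With 1 group of 2 animals there is no test of these differences, and peaks are not replicates. Members also lay closer to genes' starts, at a median of 5842.5 bp from the nearest start site against 11594 bp for introns and 15816.5 bp outside genes, and the part of this distance in the values was not tested. In the shorter list that the authors deposited for each library, 319 members (58.0%) appeared in both, against 64.5% of all shared peaks, 52.7% in introns and 57.7% outside genes.

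Members lay on both sides of the gene end. The centre was downstream in 311 (56.5%, 95% Wilson interval 52.4 to 60.6%, counting error only) and inside the gene in 239. Of the eligible sequence within 500 bp of gene ends (over 2 kb from every start site and outside coding sequence), 52.7% lay past the end, which is within that interval. Counting centres outside coding sequence, shared peaks had the same density on both sides, 40.8 per Mb past the end and 40.7 inside. By annotation, 263 centres lay outside all genes, 235 in an untranslated region, 40 in an intron and 12 in another exon. Another protein-coding gene covered 67 of the members, and 16 lay within 500 bp of an end on the other strand too, where 2 genes run toward each other. Clcn2, a chloride channel gene, was such a case. Its site, 273 bp past its end, lay in the untranslated region of Fam131a, with 5.43 in replicate 1 and 4.11 in replicate 2. Downstream members had a median value of 1.19 in replicate 1 and 0.962 in replicate 2, and members inside genes 1.04 and 0.903. Downstream was thus the higher side in both libraries, with 1 value per library and no test.

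The gene end itself held fewer open sites than the sequence on either side. Per Mb of eligible sequence, the last 100 bp of genes held 24.0 shared peak centres and the 100 bp from the last base on held 27.6. From 100 to 500 bp, the densities were 45.2 inside genes and 44.0 past the end. Counting all peaks of each library, the last 100 bp held 20.1 per Mb in replicate 1 and 30.5 in replicate 2, and the stretch from 100 to 500 bp inside held 63.3 and 62.6, so the dip was seen in both animals. The eligible sequence had 35.8% GC in the last 100 bp, 41.9% in the next 100 bp and 43.0% from 100 to 500 bp inside, against a median GC of 54.2% in members. The part of base composition in the dip was not tested. The 500 bp to either side as a whole held 40.7 shared peaks per Mb, close to the 44.5 found from 500 to 3000 bp past the end and above the 35.8 found as far inside. Eligible sequence genome-wide held 18.8 per Mb, with 41.2% GC. At the 500 bp limit of the rule, 106 members lay 400 to 500 bp from an end and 108 shared peaks lay in the next 100 bp, with medians of 1.41 and 1.03 against 1.22 and 1.08. Just inside the limit, the peak at Cldn14 (500 bp) had 2.87 and 2.33. Just outside it, the peak at Cxcl9 had 0.495 and 0.484.

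**Figure D2:**
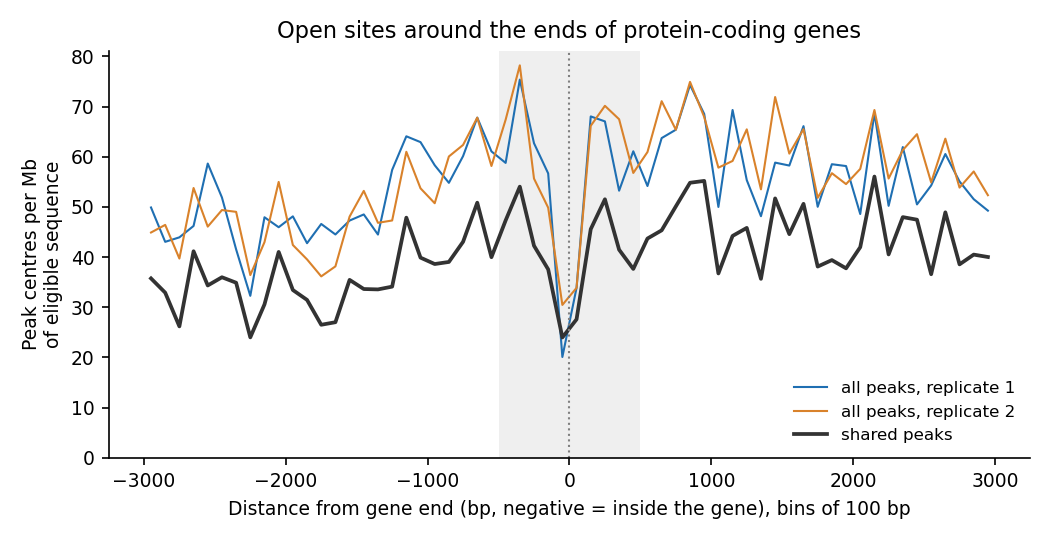
Peak centres per Mb of eligible sequence (y axis) against distance from the end of protein-coding genes in bins of 100 bp (x axis), for shared peaks (black) and for all peaks of replicate 1 (blue) and replicate 2 (orange). The grey band is the 500 bp on each side used by the rule, and all 3 lines dip in the 100 bp on each side of the end, where shared peaks fall to 24.0 and 27.6 per Mb.

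Some members lay near start sites known to RefSeq but not to GENCODE. A RefSeq transcript start lay within 500 bp of 12 of the 550 centres (2.18%), and within 2 kb of 26 (4.73%). The same shares were not computed over all shared peaks, so whether these are few or many is not known. Of these 12 nearest starts, 10 were of predicted models and 2 of curated coding transcripts. Their median values were 0.996 in replicate 1 and 0.736 in replicate 2, lower than those of the 524 members with no RefSeq start within 2 kb, at 1.13 and 0.942. The CpG ratio (observed over expected) had a median of 0.245 in members and 0.737 in shared peaks within 500 bp of a start site, so the typical member had fewer CpG than the typical promoter peak. Members did not stand out in this among distal peaks, with medians of 0.228 in introns and 0.253 outside genes. A 36-mer found at another place of the genome was present in 34 members, and 3 had such 36-mers at 50% or more of their positions, with median values of 0.521 and 0.523. Copies were counted for members only, so there is no share over all shared peaks to set beside these. Of the 15 members of highest value, 14 had no such 36-mer.

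Footprints were present in nearly all members. Replicate 1 had a footprint in 95.1% of them and replicate 2 in 91.8%, or 93.5% ± 2.31 (SD, n = 2). In both libraries at once, 487 members (88.5%) had one, against 81.4% of all shared peaks, 81.2% of those in introns and 80.7% of those outside genes. In 429 members (78.0%) a footprint of one library overlapped one of the other, against 68.5% of all shared peaks and 65.6% in introns. No footprint in either library was found in 9 members (1.64%), against 4.36% of all shared peaks, 2.82% in introns and 3.77% outside genes. The share with a footprint in both libraries was higher in stronger peaks. With members split at the quartiles of their mean value into 4 ranges, it went from 65.9% in the lowest range to 100% in the highest, and intron peaks in the same ranges went from 65.5% to 99.5%. Members held 1391 footprints in replicate 1 and 1339 in replicate 2, with median widths of 11 and 10 bp and a median of 2 per peak. Pigv, which adds a mannose in the making of GPI anchors, had 4 in replicate 1 and 10 in replicate 2. Ccm2l, a gene expressed in endothelium, had 7 in each, and all 7 overlapped between the libraries, at values of 1.58 and 1.54. The members at Gm5475 (7 and 7), Shf (6 and 7) and Ebpl (6 and 7) followed. The high counts went with wide peaks in Pigv, Gm5475 and Shf, at 480, 520 and 520 bp in replicate 2, while the Ccm2l peak was 200 bp wide.

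CTCF was the motif with the largest share of members. Its core, searched as CCANNAGNNGGC on both strands within 75 bp of the peak centre, was found in 116 members (21.1%, 95% Wilson interval 17.9 to 24.7%), against 10.2% of all shared peaks. It was found in 12.8% of the intron class, 14.6% of the class outside genes and 3.51% of peaks within 500 bp of a start site. A match is a description and does not show that CTCF is bound. The 10 members with a match and the highest values are shown with 9 bases to each side, 5′ to 3′ on the strand of the match, with the match in capitals, to let the matches be compared.
Acvrl1, chr15:101145555-101145584, minus strand: gcgcattggCCAGCAGAGGGCgacgtggct
Dand5, chr8:84815722-84815751, minus strand: cgcttttagCCACTAGGTGGCaccgcgtcc
Bcan, chr3:87987135-87987164, minus strand: aggctgtgaCCAGTAGAGGGCgctgcagat
Ror2, chr13:53109641-53109670, plus strand: ctttggactCCAGCAGATGGCagcatcgag
Ripor1, chr8:105622557-105622586, plus strand: gagctgtcgCCACCAGGGGGCagcagaact
Clcn2, chr16:20702666-20702695, plus strand: catcgaggaCCACAAGGGGGCaacccgggg
Rap1gap, chr4:137730289-137730318, plus strand: cttgtatggCCACCAGGGGGCaccagagga
Lhx5, chr5:120440903-120440932, minus strand: gacattgagCCACCAGGGGGCgccaactcg
Flt4, chr11:49652923-49652952, plus strand: ccaaaactgCCAGCAGGGGGCgcggaagag
Rps19bp1, chr15:80260870-80260899, minus strand: cacgagcgaCCAGCAGGTGGCagtgcaaaa
In each of these 10 a footprint covered part of the match in both libraries. Lhx5 encodes a LIM homeodomain factor, Flt4 the receptor VEGFR3 of lymphatic endothelium, Rap1gap a protein that switches off the small GTPase RAP1, and Rps19bp1 a nucleolar protein. Rap1gap had 5.59 in replicate 1 and 3.93 in replicate 2, Lhx5 5.69 and 3.65, Flt4 4.87 and 3.04, and Rps19bp1 4.68 and 3.11. Over all 116, a footprint overlapped the match in 93.1% in replicate 1 and 90.5% in replicate 2. In introns both shares were 88.9%, and outside genes they were 89.9% and 90.2%. Footprints on a match were long, with a median of 29 bp in replicate 1 and 27.5 bp in replicate 2, against 10 and 9 bp for the other footprints of members.

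Members with a CTCF match had higher values than those without, at 1.54 against 1.04 in replicate 1 and 1.16 against 0.851 in replicate 2. Matches were also more frequent in strong peaks of the intron class and the class outside genes, so the shares were set side by side within ranges of value. In the lowest range 10.1% of members had a match (14 of 138, Wilson interval 6.14 to 16.3%), against 7.13% in introns and 7.70% outside genes. In the second range the shares were 13.1% (18 of 137, interval 8.48 to 19.8%), 10.4% and 12.9%. The third range had the widest gap, with 29.9% (41 of 137, interval 22.9 to 38.1%) against 17.9% and 20.2%. In the highest range they were 31.2% (43 of 138, interval 24.0 to 39.3%), 27.9% and 29.6%. The members' share was the highest of the classes in every range, and their interval held both other shares in every range but the third. With 137 or 138 members per range the intervals are wide, so an interval that holds the other shares does not show equal shares. The part of peak value in the difference was not tested. The motif pointed along the gene's own strand in 63 members, along the other in 52 and both ways in 1. Matches were found on both sides of the end, in 70 of 311 downstream members and in 49 of 235 with the centre in an untranslated region.

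**Figure D3:**
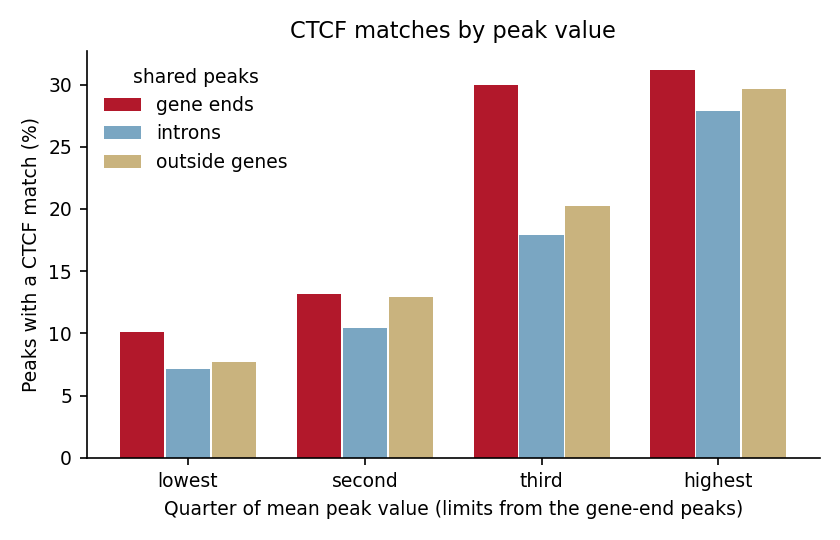
Share of shared peaks with a CTCF match (y axis, percent) by range of mean peak value (x axis), for gene ends (red), introns (blue) and sites outside genes (tan), with the same limits of value in each class. The share rises with value in all 3 classes, and the widest gap is in the third range, with 29.9% at gene ends.

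The other 16 motifs, searched in the same windows on both strands, gave smaller shares. NR5A (CAAGGNCA), the site of the steroid regulators Nr5a1 and Nr5a2, was in 10.7% of members, against 12.4% in introns, 10.3% outside genes and 8.66% of all shared peaks. RUNX (TGTGGTT) was in 29 members (5.27%, Wilson interval 3.70 to 7.47%), against 3.33%, 3.31% and 2.65%. AP-1 (TGANTCA) was in 3.09%, against 6.58%, 6.56% and 5.02%, and the motif of GATA factors, searched as AGATAA, in 4.36%, against 6.85%, 6.74% and 5.05%. SP/KLF (GGGCGGG) was in 5.45% of members, against 3.74% in introns, 4.55% outside genes and 11.8% of all shared peaks. ETS (CCGGAAG) was in 1.82%, against 1.07%, 1.33% and 3.25%. Of these motifs, the Wilson intervals of NR5A (8.41 to 13.6%) and ETS (0.991 to 3.31%) held all of these comparison shares. Those of RUNX and AP-1 (1.94 to 4.89%) held none. The GATA interval (2.95 to 6.41%) held only the share of all shared peaks. The SP/KLF interval (3.85 to 7.68%) held only the share outside genes. In peaks within 500 bp of a start site the shares of SP/KLF and ETS were 28.4% and 7.91%. C/EBP (TTGCNNAA) was in 7.09% of members against 6.16% of all shared peaks, the CACGTG E-box in 2.91% against 3.89%, and TEAD (GGAATGT) in 2.00% against 2.23%. Forkhead (TGTTTAC) was in 1.45% against 1.85%, and YY1 (AAGATGGC) in 0.909% against 1.24%. For these 5 motifs the background share lay inside the members' Wilson interval. REST (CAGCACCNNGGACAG) was found in 3 members, each with a footprint on the match in both libraries, and the glucocorticoid receptor site (GNACANNNTGTNC) in 2. That is 0.545% and 0.364%, against 0.350% and 0.468% of all shared peaks. NRF1 (GCGCATGCG), NFI (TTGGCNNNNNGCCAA) and the estrogen receptor site (GGTCANNNTGACC) were in 0 of 550, against 0.668%, 0.131% and 0.115% of all shared peaks. A count of 0 allows a share of up to 0.545%, taken as 3 counts of 550, or 0.694% by the Wilson interval. The shares of NFI and the estrogen receptor site are thus not distinguishable from the background at this number of peaks. For NRF1 the background of 0.668% lay between these limits. NRF1 was in 1.77% of peaks within 500 bp of a start site, but in 0.162% in introns and 0.254% outside genes. From these distal classes members are not distinguishable either. A footprint lay on the match in both libraries in 20.3% of members with NR5A and 20.7% of those with RUNX (6 of 29), against 88.8% for CTCF. In introns and outside genes these shares were 20.3% and 20.2% for NR5A, 13.1% and 13.8% for RUNX, and 84.3% and 85.8% for CTCF. The CTCF pattern is longer than the NR5A and RUNX patterns, and the overlap to be met without binding was not computed. The polyadenylation signal (AATAAA or ATTAAA) was found on the gene's strand in 10.04% of windows inside genes and on the opposite strand in 4.18%. Past the end the shares were 5.79% and 5.14%.

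The genes that carried members mostly had an open promoter as well. Of the 517 genes, 420 (81.2%) had a shared peak within 500 bp of an annotated start site, against 66.6% of all protein-coding genes and 69.0% of those whose end lies over 2 kb from every start site. Members of genes without an open promoter were not weaker. Their medians were 1.20 in replicate 1 and 1.01 in replicate 2, against 1.11 and 0.916. By chromosome, 64 members lay on chromosome 11 and 49 on chromosome 4, which is 1.04% and 0.922% of their shared peaks. Chromosome X had 4 members (0.193%). Eligible gene ends were not counted by chromosome, so the part of their number in these shares was not tested.

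Lists of ovarian and other cell types named few of these genes. Of 242 list genes that matched the annotation, 8 (3.31%) had a member within 500 bp of their end, against 553 of 21911 protein-coding gene symbols (2.52%). Contractile genes had 2 of 14. Lmod1, an actin nucleator of smooth muscle, had a site 346 bp past its end with 6.10 in replicate 1 and 3.19 in replicate 2. Actg2, the gamma actin of smooth muscle, had 0.703 and 1.01 at 193 bp past its end, without an open promoter. Immediate early genes had 2 of 16. Zfp36, which encodes an RNA-binding protein that speeds mRNA decay, had 2.87 and 1.87, and Junb, an AP-1 subunit, had 0.664 and 0.772, in sequence that is also the untranslated region of Prdx2. Upk3b, a marker of mesothelium and of the ovarian surface epithelium (1 of 12), had 4.06 and 3.33 before its end and no open promoter. Figla, an oocyte transcription factor (1 of 20), had 0.397 and 0.733 with a CTCF match, also without an open promoter. Rgs2, of the response to luteinising hormone (1 of 15), had 0.769 and 0.785.

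Of 20 genes of 3-prime end processing and termination, only Pabpn1, the nuclear poly(A)-binding protein, had a member, with 0.593 and 0.798, at a peak assigned to Gm20521, whose end lay within 500 bp too. No member was found at the 20 granulosa genes, 20 gonadal regulators, 17 theca, steroidogenic and luteal genes, 15 cholesterol synthesis genes or 17 stroma genes. The same held for 14 endothelial genes, 14 macrophage and lymphocyte genes, 16 housekeeping genes and 14 cohesin and insulator genes. With 2.52% of all coding gene symbols having a member, a count of 0 in lists this short is no result about these lists.

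The 2 libraries ranked the members alike, but replicate 1 gave higher values. Across the 550 peaks the Spearman correlation was 0.891 and the Pearson correlation of log10 values 0.918, which describe peaks of 2 libraries and not replicates. The value was lower in replicate 2 in 445 members (80.9%), against 79.6% of all shared peaks. The median log2 ratio of replicate 2 over replicate 1 was -0.39 in members, -0.42 in all shared peaks, -0.28 in introns and -0.27 outside genes. Relative to the median of all shared peaks, 0 members were over 2-fold lower in replicate 2, against 0.775% of all shared peaks. Over 2-fold higher were 17 members (3.09%), against 3.25%. The shares lower in replicate 2 and over 2-fold higher lie close to the background. For the count of 0, the background of 0.775% lies above both limits for 0 of 550, which are 0.545% and 0.694%. With 1 library per animal there is no test between the animals.

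**Figure D4:**
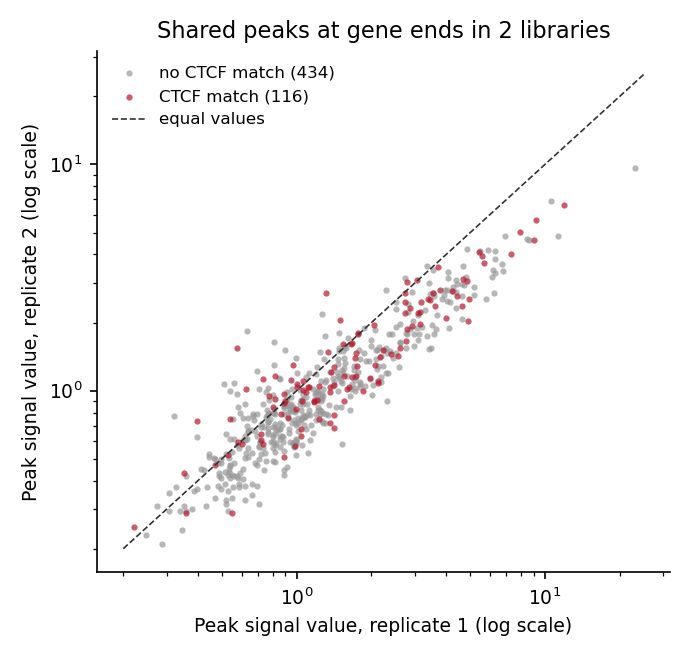
Signal value of each of the 550 members in replicate 1 (x axis) and replicate 2 (y axis), both on log scales, with the 116 members that have a CTCF match in red and the line of equal values dashed. Most points (445) lie below the line, and they move further from it as values grow.

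The ratio went with base composition. Members were split by GC content into 5 groups of 108 to 112. In the group of lowest GC content, up to 49.9%, the median log2 ratio was -0.04 and 53.6% of members were lower in replicate 2. In the group of highest, from 59.3 to 75%, it was -0.66 and 98.2% were lower. The part of GC content in the ratios of single genes was not tested. Among members above the median mean value, the lowest ratios were at Ndufs7, a subunit of respiratory complex I (-1.38, 62.0% GC), Cbx6, a Polycomb protein (-1.36, 59.9%), Lyl1, a helix-loop-helix factor of blood and endothelium (-1.26, 60.5%), Ctdsp1 (-1.25, 70.0%) and Sertad1 (-1.22, 75%). The highest were at Dnase1l3, a secreted DNase (1.54, 50% GC), As3mt, an arsenic methyltransferase (1.43, 43.5%), Dusp26, a phosphatase (1.05, 47.2%), Mrpl22, of the mitochondrial ribosome (1.03, 49.5%), and Chit1, a chitinase (0.79, 52.7%). The Dnase1l3 peak had 0.632 in replicate 1 and 1.83 in replicate 2, and the As3mt peak had 0.573 and 1.54. These genes were picked as extremes, so their ratios are given as values only.

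**Figure D5:**
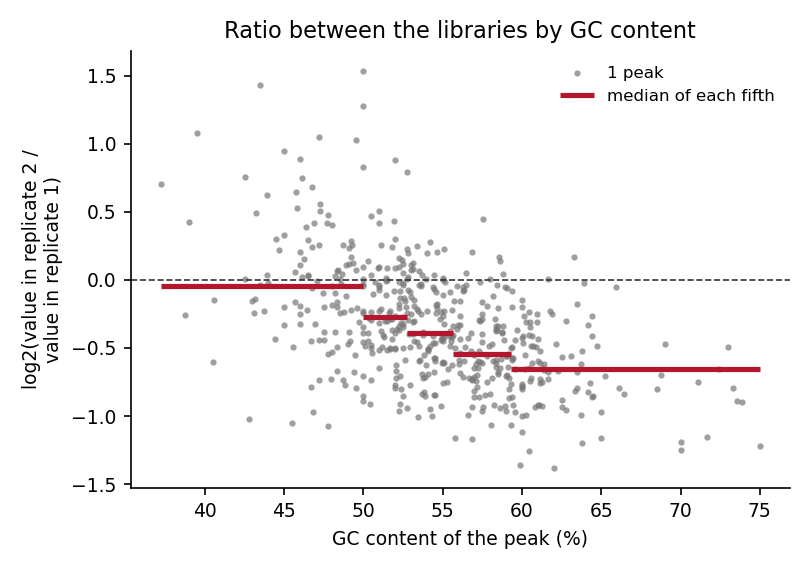
Log2 ratio of the value in replicate 2 over replicate 1 (y axis) against GC content of the peak in percent (x axis) for each member (grey), with the median of each of 5 groups by GC content in red. The medians fall from -0.04 to -0.66, and the dashed line marks equal values.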

How the data were processed

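DNase-seq was measured in 2 ovary libraries. Peaks and footprints were called by the authors for each library separately from its own alignments on mm10, per the description deposited beside the files. No aligner, caller or threshold is named in the sources used here and the depth is unknown, so intervals on shares of peaks cover counting error only. Each peak carries a deposited signal value whose scaling is not stated. The footprints carry a deposited score of 0.01 in every line, so only their positions were used. The reference was GRCm38.p6, the same build, and 555 of 555 single-exon GENCODE M21 transcripts on chromosome 19 equalled its sequence. Both parental genomes of the cross were read against this C57BL/6J reference, and the effect on CAST alleles was not tested.

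The longer peak list of each library was used, replicate 2 as reference, and a member's value in replicate 1 is that of the peak with the longest overlap. For 4 peaks of replicate 1 this was the mate of more than 1 member, and 7 members overlapped the next one. Overlaps came from numpy 2.4.6 under Python 3.11.15. An intersection by bedtools 2.31.1 also gave 81895 shared peaks. The centre of a peak set its distances. Footprints counted when they overlapped the library's own peak by 1 bp. Windows for motifs were 151 bp. Wilson intervals came from scipy 1.17.1. Copies were counted as exact 36-mers on either strand of 2.73 Gb. The code for the rule and for 36-mers was tested on simulated data.

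The members, the 15 gene lists and the 17 motifs were chosen with earlier results of these data known. Named genes followed a rule: the 15 members of highest and 5 of lowest mean value, the 5 with most footprints, the 5 highest and lowest ratios above the median value, the 10 strongest with a CTCF match, and all list genes. Fam131a, Agrp, Prdx2, Gm10130, Mir26b and Per1 were named after their positions were seen. Cldn14 and Cxcl9 were named as neighbours of the 500 bp limit. There was 1 group and no test. Alternatives covered the reference library, the peak list, the overlap, the gene end, the distances, the start sites, the footprint overlap, the CTCF window and each library left out. The sequence of 1 further peak is not reported here.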

Additional observations from a re-analysis of the deposited data

How the results depend on the processing

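Of 78 values recomputed under 15 alternatives, 65 stayed near the reported one: counts within 1.5 times, the median value and footprint share within 1 SD of the libraries, the downstream and CTCF shares within their Wilson interval, and the log2 ratio within a 95% order-statistic interval. The log2 ratio stayed negative in all 11 alternatives that gave one. The share of downstream centres kept within its interval in all 13 alternatives (53.3 to 59.8%). The number of members moved with the choices that define them: 324 with the shorter peak lists, 245 within 250 bp and 1141 within 1000 bp of the gene end. With the shorter lists the median value was 1.56, the log2 ratio -0.45, the share with a footprint in both libraries 95.4% and the share with a CTCF match 27.5%. These shares were not computed over all shared peaks of the shorter lists, so they cannot be set against a background. Within 250 bp the log2 ratio was -0.44. With an overlap of at least 50% of both peaks, 91.2% had a footprint in both libraries. When one library was left out and no overlap was required, the number ranged from 756 to 782, the median value from 0.733 to 0.909, the share with a footprint from 83.0 to 86.2%, the downstream share from 56.6 to 56.7% and the CTCF share from 16.53 to 17.01%. Those sets include peaks found in 1 library alone. Leaving out members near RefSeq starts (524 left) or with 36-mers elsewhere (516 left), both chosen after seeing the data, gave CTCF shares of 21.2% and 21.1%. No paired analysis was possible because there was 1 group. The depth of the libraries is not known, so faint members cannot be ranked by counting error, and 2 animals limit the precision of every mean.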
